A study of Ovis aries with 49 samples.

Results

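The enzymes described here build fatty acids: FASN (fatty acid synthase), SCD (stearoyl-CoA desaturase), ELOVL6 (a fatty acid elongase) and PGD (6-phosphogluconate dehydrogenase). They were chosen as the probe sets whose gene symbol in the platform annotation is 1 of these names, which gave 4 of the 10273 probe sets, 1 for each gene (FASN 217006_x_at, SCD 211162_x_at, ELOVL6 204256_at and PGD 201118_at). The study took fat from sex-matched twin lambs of Bluefaced Leicester cross Swaledale ewes, 1 twin at each age, and hybridised the RNA to human expression arrays. Epicardial, omental, perirenal, sternal and subcutaneous fat was sampled at 28 days (5 arrays in each depot) and at 7 days (5 arrays in each depot, and 4 in subcutaneous fat), 49 arrays in all. By the methods the ewes were fed a standard diet or the same diet with canola oil added. No label states what the mothers were fed, and the titles hold an unexplained letter C, so arrays were not assigned to a diet. The titles and age field were used for age, since 1 description shared by all samples gives a different range of ages. Title numbers became the letters H to O for lambs of 28 days and A to G for lambs of 7 days. The labels do not define them as animals. By the methods all depots were taken from each lamb, so arrays of different depots at 1 age can come from 1 animal. Lambs of different ages can be twins of 1 ewe, and the labels do not link them. All arrays were fitted as independent, so the p-values reflect only the spread between samples.

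FASN joins acetyl and malonyl units into palmitate and spends NADPH at each round, and PGD, an enzyme of the pentose phosphate pathway, is among the enzymes that regenerate NADPH. ELOVL6 lengthens palmitate to stearate, and SCD puts the first double bond into stearate to give oleate, the main monounsaturated fatty acid of stored fat. Ruminant adipose tissue builds fatty acids mainly from acetate, and a suckling lamb also takes in a large amount of milk fat.

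Values are GCRMA log2 values, so a difference of 1 is a doubling of signal. The lowest value of the table was 2.49, and 82.7% of all values were below 4. ELOVL6 averaged 8.83 over the 49 arrays and SCD 6.34, whereas FASN averaged 3.55 and PGD 3.32, near the lowest signal. For FASN, 21 arrays lay within 0.005 of a single repeated value of 3.49, and for PGD 24 arrays lay at 3.27. SCD had 6 arrays at a repeated value of 4.59, and ELOVL6 had at most 3 within that tolerance. Such repeats are common in this table, in which 86.3% of probe sets had 10 or more arrays at 1 value, and they carry no order. A low value can come from low expression or from poor hybridisation of sheep RNA to a human probe, and these were not separated. In addition, the FASN and SCD probe sets are of the type marked _x_at, whose probes may also match other transcripts.

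Depot labels were only partly checked by the arrays. Of 20 adipocyte markers 11 were measured, and in each of the 10 groups only 2 of them, the fatty acid transporter CD36 and the caveolar protein CAV1, averaged above 4, while defining markers such as ADIPOQ, LEP and PLIN1 were not analysed here. Muscle RNA was present in some samples. The creatine kinase gene CKM averaged 7.57 in epicardial fat at 28 days and 10.21 in epicardial fat at 7 days. It exceeded 4 in 9 of the 19 sternal and subcutaneous arrays. Only these 9 arrays are called muscle-rich below, and epicardial arrays were not left out for their CKM. In whole tissue, fewer adipocytes and less RNA per adipocyte cannot be told apart.

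SCD was the member that changed with age. As a mean over the depots, 28 minus 7 days was -1.58 ± 0.25 on the log2 scale (SE, 95% interval -2.09 to -1.08, 3.0-fold, limma adjusted p = 2.91e-06). Of the 4 members it alone passed this test, against 25.5% of all probe sets and 4.85% called lower. The other members had intervals that included 0, with differences of 0.053 (-0.12 to 0.23) for FASN, 0.040 (-0.32 to 0.40) for ELOVL6 and 0.068 (-0.093 to 0.23) for PGD.

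**Figure D1:**
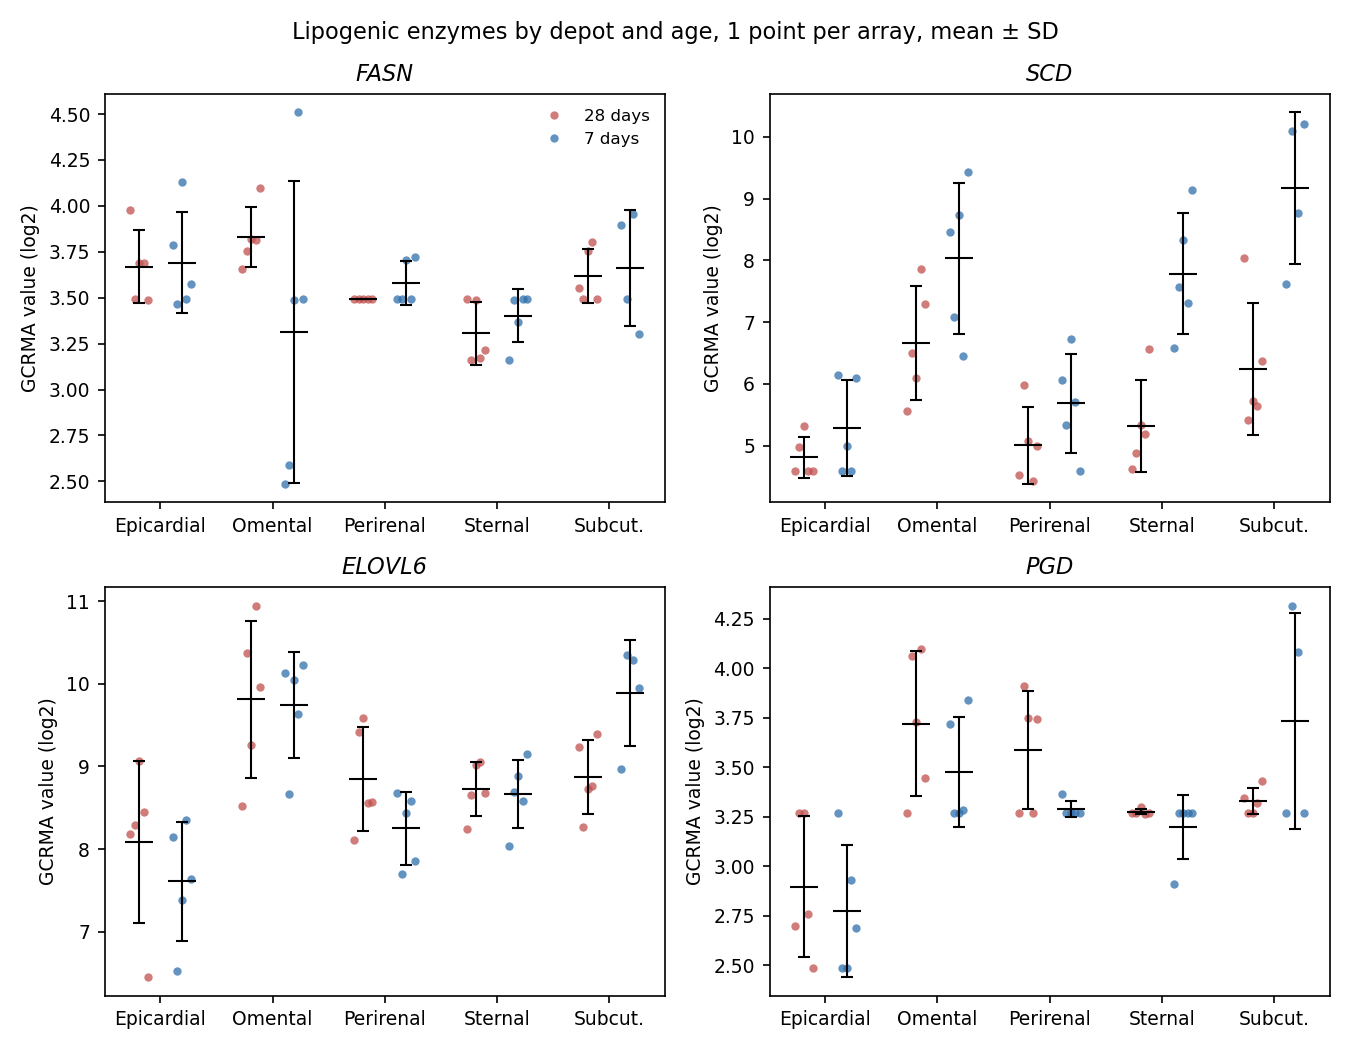
GCRMA log2 value (y axis) of FASN, SCD, ELOVL6 and PGD in each depot (x axis), 28 days (red) left of 7 days (blue), 1 point per array, with the mean and SD as bars. The y axes differ between panels. SCD at 28 days lies below 7 days in sternal fat without overlap, and FASN and PGD have many arrays at 1 repeated value.

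In sternal fat SCD was 4.61, 4.88, 5.34, 5.18 and 6.56 at 28 days, against 6.59, 7.57, 8.33, 7.30 and 9.14 at 7 days. Every array at 28 days was below every array at 7 days, although the highest at 28 days came close to the lowest at 7 days. The difference was -2.47 ± 0.55 (SE, 95% interval -3.58 to -1.36, 5.54-fold, limma adjusted p = 0.0022), and SCD was the only member called in this depot, where 3.89% of probe sets were called lower.

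In subcutaneous fat SCD was 8.04, 5.41, 5.72, 5.65 and 6.36 at 28 days, against 7.61, 10.10, 8.77 and 10.21 at 7 days. A single array at 28 days, replicate H, lay above the lowest array at 7 days, and the other 4 lay below all of them. The difference was -2.94 ± 0.58 (SE, 95% interval -4.11 to -1.76, 7.65-fold, limma adjusted p = 0.00085), again the only called member, with 1.57% of probe sets called lower. With only the 2 ages of 1 depot in the fit, SCD missed the threshold in sternal fat (adjusted p = 0.062) and in subcutaneous fat (adjusted p = 0.10).

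SCD in omental fat was 5.57, 6.51, 6.10, 7.86 and 7.29 at 28 days, against 8.46, 7.09, 8.73, 6.45 and 9.43 at 7 days. The groups overlapped, and the difference of -1.37 ± 0.55 did not pass the test (SE, 95% interval -2.47 to -0.26, limma adjusted p = 0.088). This call depended on a few arrays and settings. The difference passed without replicate C at 7 days or replicate N at 28 days. It also passed with arrays centred on the median of the probe sets averaging 4 or more (adjusted p = 0.0099, median centring below). With probe sets averaging below 4 left out it passed too (adjusted p = 0.043). No member was called in omental, perirenal or epicardial fat, where 14.6%, 9.32% and 5.84% of probe sets were.

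SCD was low at both ages in the remaining depots. Perirenal fat had 4.52, 5.98, 5.08, 4.43 and 5.00 at 28 days, against 6.07, 5.33, 6.72, 5.71 and 4.59 at 7 days. Epicardial fat had 4.59, 4.98, 5.31, 4.59 and 4.59 at 28 days, against 6.15, 4.59, 5.00, 4.59 and 6.10 at 7 days. Both pairs overlapped, with differences of -0.68 (95% interval -1.79 to 0.43) in perirenal and -0.47 (-1.58 to 0.63) in epicardial fat. In epicardial fat 5 of the 10 arrays lay at the repeated value of 4.59.

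**Figure D2:**
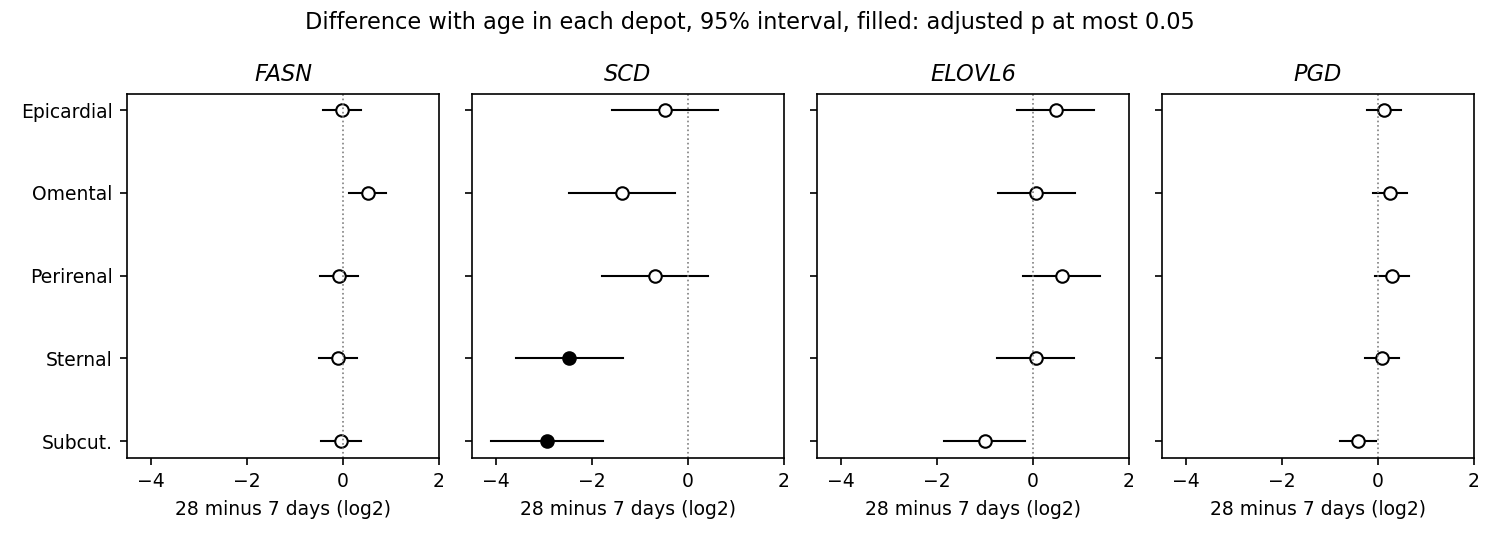
Difference between 28 and 7 days (x axis, log2, 28 minus 7 days) for each member in each depot (y axis), with the 95% interval of the limma fit. Filled points have an adjusted p of at most 0.05, which holds for SCD in sternal (-2.47) and subcutaneous (-2.94) fat and for no other pair of member and depot.

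Whether the fall of SCD differed between depots was tested directly. The F test of depot by age gave an adjusted p of 0.083 for SCD (limma), and no member passed, against 9.17% of all probe sets. For SCD the test passed with median centring (adjusted p = 0.038), with probe sets averaging below 4 left out (0.029), and without either of 2 subcutaneous arrays, replicate A at 7 days or replicate H at 28 days. Many probe sets passed under the first 2 settings, 3943 of 10273 with median centring and 727 of 1752 with those averaging below 4 left out. The age difference of subcutaneous fat minus the mean age difference of the other depots was -1.69 for SCD, -1.31 for ELOVL6 and -0.59 for PGD, with limma adjusted p of 0.19, 0.15 and 0.13. All of these have the same sign, and none passed.

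Muscle RNA was set beside the SCD values. Over 19 skeletal muscle genes, of which 14 were measured, the mean level of the list in single sternal arrays ran from 2.72 to 7.47 at 28 days and from 2.69 to 4.32 at 7 days. In subcutaneous arrays it ran from 2.79 to 4.00 at 28 days and from 2.76 to 7.83 at 7 days. The highest list means were at 28 days in sternal fat and at 7 days in subcutaneous fat. The 2 subcutaneous arrays at 7 days with CKM of 12.95 and 11.71 had SCD of 7.61 and 8.77, below the 10.10 and 10.21 of the arrays with CKM of 2.77 and 6.35. In sternal fat at 28 days the arrays with CKM of 12.72 and 11.32 had SCD of 4.88 and 6.56, the second the highest of its group, against 4.61, 5.34 and 5.18 in those with CKM of 2.73, 2.88 and 4.51. In sternal fat at 7 days the array with CKM of 8.29 had the lowest SCD of its group, 6.59. Without the 9 arrays with CKM above 4 the SCD difference was -3.11 in sternal fat (adjusted p = 0.0067) and -3.49 in subcutaneous fat (adjusted p = 0.028), the second against a single array at 7 days whose spread is taken from the other groups. RNA was extracted from a larger amount of tissue at 28 days than at 7 days, which cannot be told apart from age.

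Brown adipocyte markers also moved with age. Of 12 listed 7 were measured, and 4 of them were lower at 28 days in sternal fat and 1 in subcutaneous fat. Of all probe sets 3.89% and 1.57% were called lower there. The mean level of this list per array ran from 3.20 to 3.50 at 28 days and from 4.12 to 4.40 at 7 days in sternal fat, and from 3.20 to 3.47 at 28 days and from 3.46 to 3.71 at 7 days in subcutaneous fat. The ranges did not overlap in sternal fat and overlapped slightly in subcutaneous fat. The part of these cells in the SCD difference was not tested.

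**Figure D3:**
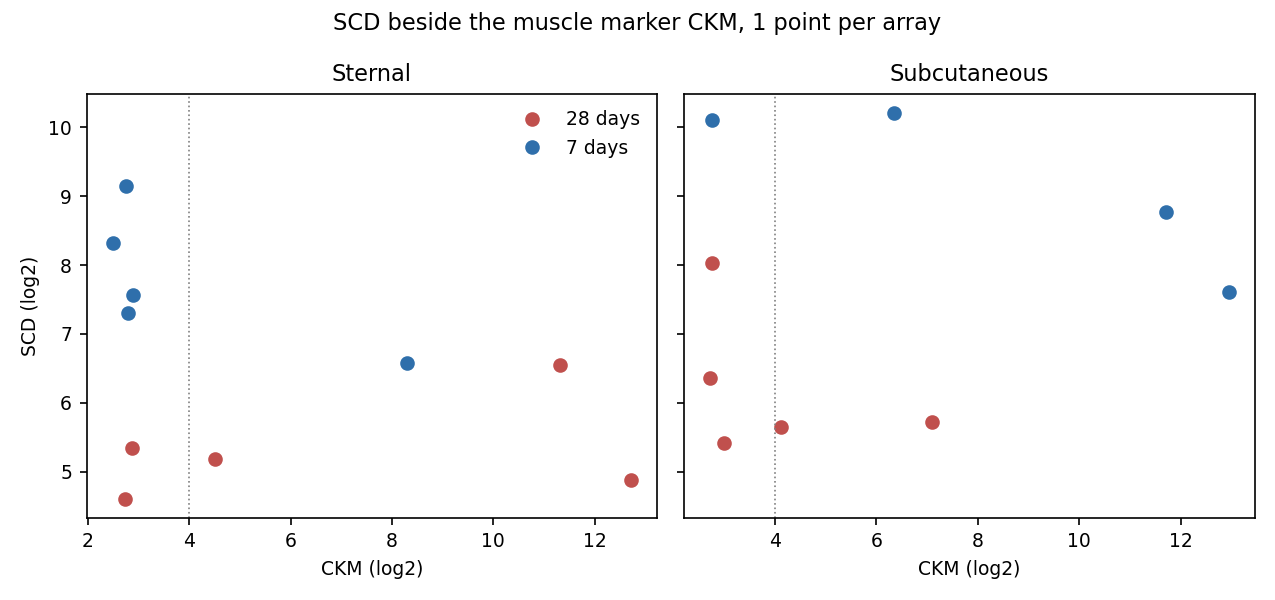
SCD (y axis, log2) against the muscle creatine kinase CKM (x axis, log2) in sternal (left) and subcutaneous (right) arrays, 28 days in red and 7 days in blue, with a dotted line at a CKM value of 4. On each side of the line the arrays at 28 days lie below those at 7 days, and across it replicate H of subcutaneous fat at 28 days (8.04) lies above 1 array at 7 days (7.61).

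Between depots at 7 days, SCD, ELOVL6 and PGD differed and FASN did not pass the test. The limma F test over the 5 depots gave adjusted p of 0.00083 for SCD, 0.00059 for ELOVL6, 0.020 for PGD and 0.73 for FASN, and 8.16% of all probe sets were called. Epicardial fat held the low end and subcutaneous and omental fat the high end for these 3 genes. Against the mean of the other depots, epicardial fat was lower in 3 of 4 members, where 0.72% of probe sets were called lower, with differences of -2.38 for SCD (adjusted p = 0.0047), -1.53 for ELOVL6 (0.0017) and -0.65 for PGD (0.010). The PGD difference was not called without epicardial replicate G, and its F test not without replicate G or D. That F test also did not pass with the replicate number as a fixed block.

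ELOVL6 at 7 days was 8.15, 6.53, 7.38, 8.35 and 7.63 in epicardial fat. It was 10.13, 8.67, 10.04, 9.64 and 10.23 in omental fat. It was 8.97, 10.35, 10.28 and 9.95 in subcutaneous fat. All epicardial arrays were below all omental and all subcutaneous ones, where 0.818% and 0.672% of probe sets were called lower. The limma differences were -2.13 ± 0.35 (SE, epicardial minus omental, adjusted p = 0.00069) and -2.28 ± 0.37 (epicardial minus subcutaneous, adjusted p = 0.0010). Perirenal fat had 8.68, 7.70, 8.44, 8.59 and 7.86, and sternal fat had 8.04, 8.69, 8.89, 8.58 and 9.15, with group means between those of epicardial and omental fat.

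By mean level at 7 days the order was subcutaneous (9.89 ± 0.64, SD, n = 4), omental (9.74 ± 0.64), sternal (8.67 ± 0.41), perirenal (8.25 ± 0.44) and epicardial (7.61 ± 0.72, n = 5 each) for ELOVL6. SCD followed the same order, with 9.17 ± 1.23, 8.03 ± 1.23, 7.79 ± 0.98, 5.68 ± 0.80 and 5.28 ± 0.78. No pair of neighbours in either order passed the test. For SCD the widest gap between neighbours, perirenal minus sternal, was -2.10 (95% interval -3.37 to -0.84, limma adjusted p = 0.084), and it passed with probe sets averaging below 4 left out (adjusted p = 0.032). For ELOVL6 it was omental minus sternal, 1.07 (0.35 to 1.80, adjusted p = 0.22).

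Some depots further apart in that order differed and others did not pass the test. Perirenal fat was below subcutaneous fat in SCD (-3.49, 11.2-fold, limma adjusted p = 0.0027) and in ELOVL6 (-1.63, adjusted p = 0.013), with no overlap in either gene, and 0.964% of probe sets were called lower in that pair. Omental fat was above perirenal fat in SCD by 2.35 (adjusted p = 0.027) and in ELOVL6 by 1.49 (adjusted p = 0.016), with 0.769% of probe sets called higher. The SCD call of that pair was lost without omental replicate A, E or G or perirenal replicate C or D (2.00 to 2.26). Epicardial fat was 14.8-fold below subcutaneous fat in SCD (difference -3.89, limma adjusted p = 0.0013). It was also below sternal fat in SCD (-2.50, adjusted p = 0.020, 0.691% called lower), a call lost without epicardial replicate C or G or sternal replicate E or G (-2.43 to -2.16). Without the 9 arrays with CKM above 4, ELOVL6 in perirenal against subcutaneous fat no longer passed (-2.10, adjusted p = 0.057).

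Other pairs that were not neighbours at 7 days did not pass. Sternal minus subcutaneous fat was -1.39 for SCD (95% interval -2.73 to -0.047, limma adjusted p = 0.43) and -1.22 for ELOVL6 (-1.99 to -0.45, adjusted p = 0.14). Epicardial minus sternal fat was -1.06 for ELOVL6 (-1.79 to -0.33, adjusted p = 0.11).

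Set against the mean of the other depots at 7 days, subcutaneous fat was higher in SCD by 2.48 (limma adjusted p = 0.019) and in ELOVL6 by 1.32 (adjusted p = 0.031), 2 of 4 members where 0.827% of probe sets were called higher. Both calls were lost without subcutaneous replicate E or F, and for ELOVL6 also without G or with the replicate number as a fixed block. They were also lost without the 9 muscle-rich arrays, which left 1 subcutaneous array (SCD 3.33, adjusted p = 0.056, and ELOVL6 1.75, adjusted p = 0.12). Omental fat was higher in ELOVL6 by 1.14 (adjusted p = 0.038, 0.565% called higher), a call lost on leaving out 10 of the 24 arrays in turn (adjusted p up to 0.13), and also without the muscle-rich arrays (0.98, adjusted p = 0.11). Perirenal fat was lower in SCD (-1.89, adjusted p = 0.025, 0.535% called lower), a call lost without perirenal replicate C or D. Sternal fat had no called member, where 1.2% of probe sets were called.

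Muscle RNA stood beside the epicardial values. Of 18 cardiac muscle genes 12 were measured, and at 7 days 11 of them were called higher in epicardial fat, with a list mean per array from 6.85 to 8.89 in epicardial fat and from 2.79 to 7.58 in the other depots. The part of muscle RNA in the low SCD, ELOVL6 and PGD of epicardial fat was not tested. Within the sternal and subcutaneous groups, across 19 arrays and as a description only, deviations from the group mean correlated with those of CKM at r = -0.36 for SCD, -0.43 for ELOVL6, -0.37 for PGD and 0.072 for FASN.

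At 28 days omental fat had the highest group mean in all 4 members. All 4 members were higher there than in the mean of the other depots, where 4.76% of probe sets were called higher: FASN by 0.31 (limma adjusted p = 0.017), SCD by 1.32 (0.038), ELOVL6 by 1.18 (0.045) and PGD by 0.45 (0.042). These calls were close to the threshold. All 4 were lost with quantile normalization (adjusted p = 0.30, 0.083, 0.081 and 0.15) and with median centring (0.17, 0.059, 0.061 and 0.074), and those of SCD, ELOVL6 and PGD were lost without the 9 muscle-rich arrays and on leaving out 11, 14 and 14 of the 25 arrays in turn, with adjusted p up to 0.18, 0.21 and 0.19. Without omental replicate N, the omental array with the most ELOVL6, the differences were 1.02 for SCD, 0.89 for ELOVL6 and 0.35 for PGD. FASN was lost without omental replicate O (0.24, adjusted p = 0.082). In single pairs no member was called between omental and perirenal fat (lowest limma adjusted p = 0.058) or omental and subcutaneous fat (0.30). Over all probe sets 295 and 214 of 10273 were called in these pairs. Against sternal fat only FASN was called, where 15.2% of probe sets were called higher.

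ELOVL6 at 28 days was 8.52, 10.38, 9.26, 10.95 and 9.96 in omental fat. It was 8.18, 8.30, 9.07, 8.44 and 6.45 in epicardial fat. The groups overlapped, since the lowest omental array lay below the highest epicardial one, and the difference of -1.73 ± 0.43 (SE, epicardial minus omental) had a limma adjusted p of 0.027. In that pair SCD differed by -1.85 (adjusted p = 0.029) and PGD by -0.82 (adjusted p = 0.0051), so 3 of 4 members were called where 1.97% of probe sets were called lower. The ELOVL6 call was lost without epicardial replicate O or omental replicate J, N or O (-1.69 to -1.32). It was also lost in the fit without the 9 muscle-rich arrays (adjusted p = 0.067). None of those is epicardial or omental, so this difference stayed the same and only the pooled spread and the adjustment changed. The SCD call was lost without epicardial replicate I, N or O or omental replicate N or O, and the PGD call was kept without any 1 array.

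The remaining groups lay close together at 28 days. ELOVL6 ran from 8.11 to 9.59 in perirenal fat, from 8.24 to 9.05 in sternal fat and from 8.27 to 9.39 in subcutaneous fat, and the F test over the depots narrowly missed the threshold (limma adjusted p = 0.058). SCD passed it (adjusted p = 0.016), as did FASN (0.0034) and PGD (0.0052), where 20% of all probe sets were called. The order of SCD was omental (6.67 ± 0.92), subcutaneous (6.24 ± 1.07), sternal (5.31 ± 0.75), perirenal (5.00 ± 0.62) and epicardial (4.81 ± 0.33, SD, n = 5 each), and no neighbours in it passed the test. The interval of the gap between omental and subcutaneous fat was -0.54 to 1.40.

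Between the ages ELOVL6 overlapped in each depot. In subcutaneous fat it was 9.24, 8.27, 8.73, 8.76 and 9.39 at 28 days, against the 7-day values of 8.97, 10.35, 10.28 and 9.95. At 28 days 2 arrays lay above the lowest 7-day array and none above the other 3. The difference of -1.01 did not pass (95% interval -1.86 to -0.16, limma adjusted p = 0.14), and it passed with median centring (adjusted p = 0.037). PGD in the same depot had a difference of -0.41 (adjusted p = 0.18, and 0.023 with median centring). With median centring 1577 of 10273 probe sets were called lower with age in this depot, against 161 as deposited. Centring moved every value of an array, repeated values such as those of PGD included. In the remaining depots ELOVL6 differed by 0.060 to 0.60 between the ages, with all intervals including 0.

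FASN was near the lowest signal in every group, with means from 3.31 to 3.83. In omental fat it was 3.66, 3.76, 3.82, 3.81 and 4.10 at 28 days, against 2.49, 2.59, 3.49, 4.51 and 3.49 at 7 days. The 7-day arrays spread on both sides of the 28-day ones, and the difference of 0.52 did not pass (95% interval 0.12 to 0.91, limma adjusted p = 0.067). Without replicate C at 7 days, the highest FASN array of all, the difference was 0.81 (adjusted p = 0.00022). All 5 perirenal arrays at 28 days lay at the repeated value.

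In sternal fat at 28 days FASN was 3.49, 3.16, 3.49, 3.17 and 3.21, none above the repeated value. It was lower than in the mean of the other depots (-0.35, limma adjusted p = 0.0022), in a comparison where 18.4% of all probe sets were called lower. Over all probe sets averaging 4 or more, the median difference was itself -0.33 there. With median centring the FASN difference was 0.065 and not called, so its direction depends on the scaling. FASN was also not called without the muscle-rich arrays (-0.13). The pairs in which FASN was called, sternal against epicardial, omental and subcutaneous fat, all hold sternal fat, and 11.6%, 15.2% and 10.9% of probe sets were called in the same direction in them. In the pair with subcutaneous fat the call was lost without sternal replicate J, N or O or subcutaneous replicate J or M (-0.29 to -0.27). The replicate number as a fixed block also ended that call.

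PGD lay above its repeated value mainly in omental, perirenal and subcutaneous fat and below it mainly in epicardial fat. At 7 days epicardial fat had 3.27, 2.49, 2.49, 2.93 and 2.69, with 4 of 5 arrays below the repeated value. Subcutaneous fat had 3.27, 4.32, 4.08 and 3.27, with 2 of 4 arrays above it. Epicardial minus subcutaneous PGD was -0.96 (limma adjusted p = 0.0091), and the groups met only at the repeated value. That call was lost with the replicate number as a fixed block.

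At 28 days PGD in epicardial fat was 2.70, 3.27, 3.27, 2.76 and 2.49, lower than in the mean of the other depots (-0.58, limma adjusted p = 0.011, 0.506% called lower). The call was lost without epicardial replicate O (adjusted p = 0.062). Omental fat had 3.27, 4.06, 3.73, 4.10 and 3.44, and perirenal fat 3.27, 3.91, 3.75, 3.27 and 3.74, so 4 and 3 of 5 arrays lay above the repeated value. Epicardial PGD was below perirenal PGD (-0.69, limma adjusted p = 0.020, 1.1% called lower), a call lost without epicardial replicate O or without any of 3 perirenal arrays, J, K or M. It was also lost with the replicate number as a fixed block. Sternal PGD stayed at the repeated value in 4 of 5 arrays at each age.

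SCD, ELOVL6 and PGD moved together from array to array, and FASN did not follow them. Over the 49 arrays Pearson's r was 0.82 between ELOVL6 and PGD, 0.68 between SCD and ELOVL6 and 0.49 between SCD and PGD, while FASN gave between -0.13 and 0.033 with the others. After subtraction of group means the first 3 were 0.71, 0.61 and 0.45. The arrays share depots and scaling and can share animals, and 24 of the 49 PGD values and 21 of the FASN values are repeats, so the values are a description. The part of the low FASN signal in its low r was not tested.

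**Figure D4:**
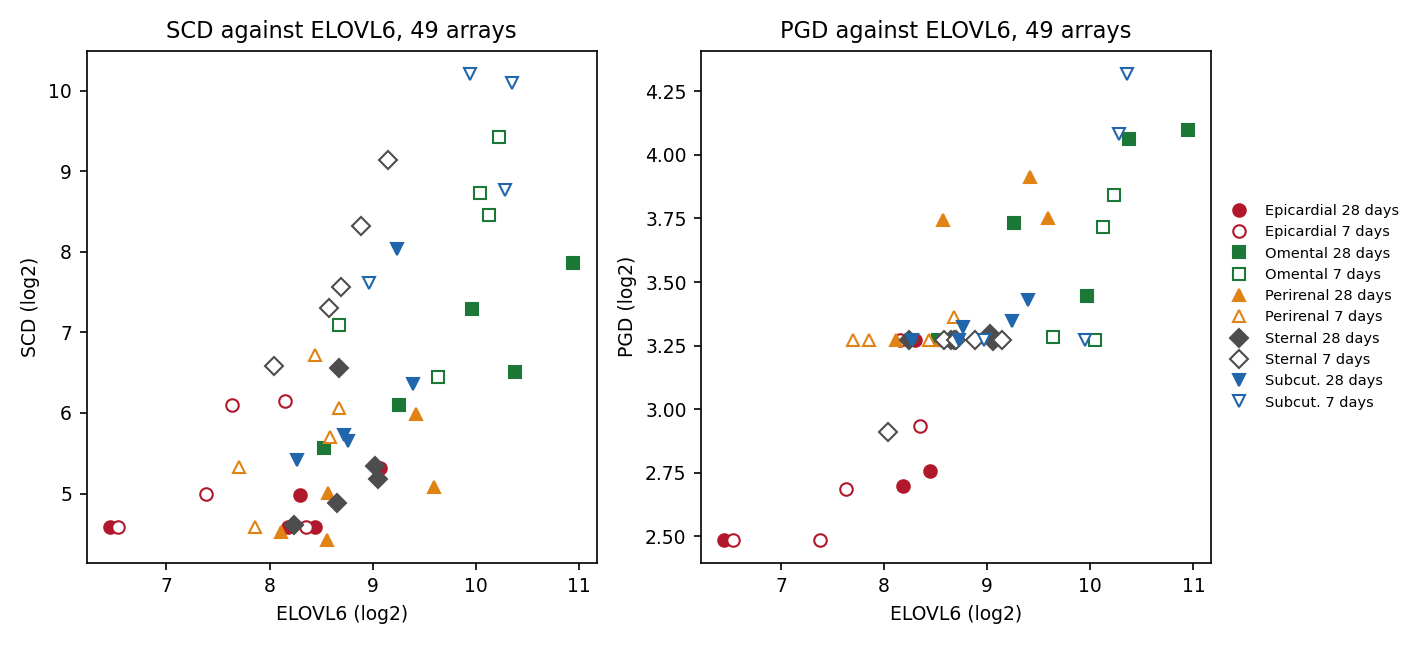
SCD (left, y axis, log2) and PGD (right, y axis, log2) against ELOVL6 (x axis, log2) in the 49 arrays, colour and shape by depot, filled at 28 days and open at 7 days. At a given ELOVL6 value sternal arrays at 28 days lie lower in SCD than those at 7 days, and PGD forms a level row at 3.27.

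By array, the low values of ELOVL6 recurred under the same replicate letter. Replicate D was the lowest of its group in all 4 depots it was measured in at 7 days (mean deviation from the group mean -0.83), and replicate I was the lowest in 4 of 5 depots at 28 days (-0.61). Replicate D was also below the group mean in SCD in all 4 depots, and replicate I in all 5, while replicate E was above it in all 4. This pattern was noticed in the values and was not tested.

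Among 1669 probe sets that have 1 symbol and average 4 or more, the one most like PGD over the 49 arrays was ELOVL6 (r = 0.82), followed by PON2 (0.75), MID1IP1 (0.71) and DGAT2 (0.71). Most like ELOVL6 were PON2 (0.81), DGAT2 (0.79) and PPIA (0.76). Most like SCD were BZW1 (0.75), PSMD14 (0.73) and DGAT2 (0.70), and for FASN the highest value was only 0.56, with NFYC. DGAT2 was thus among the 5 nearest genes of 3 members, and within groups its r was 0.79 with ELOVL6, 0.66 with SCD and 0.59 with PGD.

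Other genes of the pathway changed with age in both directions. For 28 against 7 days as a mean over depots, 1 of 6 measured genes of fatty acid synthesis rose and 1 fell (13 listed, FASN included, median difference 0.0092). That fall was ACLY, which cleaves citrate to acetyl-CoA (-0.61, limma adjusted p = 0.0058), and the rise was ACACA, the carboxylase that makes malonyl-CoA (0.10, adjusted p = 0.025), at the lowest signal. Of 12 measured genes of desaturation and elongation (18 listed), 3 fell, SCD among them, and 1 rose, with a median of -0.0039. TECR, which completes the elongation cycle, fell (-0.44, adjusted p = 0.027). The median over all probe sets was 0.026, and 25.5% were called.

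Among 11 measured genes of NADPH supply (13 listed, PGD included), 3 rose and 3 fell between the ages. The falls were in MDH1 (-0.94, limma adjusted p = 3.52e-11), IDH2 (-0.93, adjusted p = 0.00071) and NNT (-0.75, adjusted p = 8.73e-06). These are a malate dehydrogenase, a mitochondrial isocitrate dehydrogenase and the mitochondrial transhydrogenase. MDH1 is on the list but works with NAD and does not itself form NADPH. The largest rise was in ALDH1L1, a folate enzyme that yields NADPH (0.65, adjusted p = 2.90e-06). PGD was not among them. Brown adipocyte markers fell beside these genes, 4 of 7 measured, where 4.85% of all probe sets were called lower. UCP1, the uncoupling protein of brown fat, was at -1.32 (limma adjusted p = 2.76e-08). PPARGC1A, a regulator of mitochondrial genes, was at -1.45 (adjusted p = 3.67e-10). The part of brown adipocytes in these falls was not tested.

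ACLY had its highest group mean in subcutaneous fat at 7 days, and within subcutaneous fat it was lower at 28 days (-1.54, limma adjusted p = 0.0095), the only called gene of fatty acid synthesis there. DGAT2, which adds the last fatty acid of triglyceride, at 7 days was lower in epicardial fat than elsewhere (-1.31, adjusted p = 0.0072), as were TECR (-1.16, adjusted p = 0.022) and MID1IP1, an activator of acetyl-CoA carboxylase (-0.94, adjusted p = 0.033). In that comparison 3 of 12 genes of desaturation and elongation were lower and none higher. These were the members SCD and ELOVL6, already given above, and TECR, so the count adds only TECR. Of 12 genes of glycerolipid assembly 1 was lower, DGAT2, and none higher, where 0.72% of all probe sets were called lower. Among 21 regulators of lipogenesis 1 was lower, MID1IP1, and 1 higher, the transcription factor subunit NFYC (1.39, adjusted p = 0.0017). Of 11 genes listed under NADPH supply PGD was lower and 3 were higher, IDH2 by 2.98 (adjusted p = 0.00012), NNT by 1.20 (adjusted p = 0.0039) and MDH1 by 0.55 (adjusted p = 0.015). IDH2 and NNT are mitochondrial, and MDH1 does not itself form NADPH. The part of muscle RNA in these higher values was not tested.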

How the data were processed

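Per the labels and the paper's methods, the authors made the deposited log2 values with GCRMA in the affy package (background correction from probe sequence, normalization, summary per probe set) and filtered them to 10273 probe sets. The sources used here give neither versions nor a genome build. Symbols came from the platform annotation, in which 9780 probe sets have 1 symbol, 6 several and 487 none. The precision is limited by the number of arrays.

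All probe sets were fitted with limma 3.58.1 (R 4.3.3), in 1 model per age over 5 depots and 1 over all 10 groups. Variances were moderated by empirical Bayes, and p-values were adjusted by Benjamini-Hochberg per comparison. Called means an adjusted p of at most 0.05. The procedure was tested on simulated data with independent normal noise. These had no repeated values and no shared animals, so the test does not cover those features of the arrays. Alternatives were quantile normalization, median centring, a minimum mean of 4, another prior, array weights and the replicate number as a block. Others were fits of only the groups compared, sternal and subcutaneous arrays with CKM above 4 left out, and each array left out. Median centring shifted all values of an array by 1 amount. That amount brought its median over the 1752 probe sets averaging 4 or more to a common level.

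Members and gene lists were chosen with earlier results of these data known. The text names all 4 members, the probe sets nearest to each by Pearson's r over 49 arrays, up to 4 called genes per list, and CKM. Each list gene was read from its probe set with the highest mean.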

Additional observations from a re-analysis of the deposited data

Results flagged for a closer look

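In groups of 4 or 5 arrays, an array was marked where its gap to the nearest other array exceeded Dixon's critical share of the group's range. This marked 4 of 40 combinations of member and group, where chance marks about 1 in 20. PGD was 2.909 in replicate D of sternal fat at 7 days, against 3.271 in the other arrays. PGD was 3.363 in replicate A of perirenal fat at 7 days, against 3.271 in the others, and 3.297 in replicate M of sternal fat at 28 days, against 3.267 to 3.271. FASN was 3.494 in replicate M of perirenal fat at 28 days, against 3.493. All of these lie in groups whose other arrays share 1 repeated value, so a very small gap was enough to be marked, and no array of SCD or ELOVL6 was marked.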

How the results depend on the processing

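The main fits leave out the replicate number. Arrays sharing it had slightly more alike deviations (mean r 0.044 at 7 and 0.0765 at 28 days) than other pairs (-0.0073 and -0.0143). Their r exceeded 0.1 in 6 of 33 and 12 of 39 pairs. With the fixed replicate block the F test over depots gave PGD at 7 days an adjusted p of 0.081 and ELOVL6 at 28 days one of 0.029, the ELOVL6 difference turned to 0.15 (omental minus subcutaneous, 7 days) and 0.13 (perirenal minus subcutaneous, 28 days). It also ended the calls of FASN in omental fat (0.060) and in sternal against subcutaneous fat (0.098) at 28 days, ELOVL6 in subcutaneous fat at 7 days (0.082), and PGD in epicardial against subcutaneous fat at 7 days (0.079) and against perirenal fat at 28 days (0.053), as adjusted p. ELOVL6 at 28 days also passed its F test with median centring (0.012), a minimum mean of 4 (0.018) and another prior (0.044). Those settings called 8081 of 10273, 1168 of 1752 and 1909 of 10273 probe sets in that test, so most probe sets passed it in the first 2. FASN lost its F test at 28 days with quantile normalization (0.36) and median centring (0.24). Median centring turned FASN differences that involve sternal fat at 28 days to 0.065 (against the others), -0.069 (epicardial minus sternal) and 0.082 (sternal minus subcutaneous). Mean age differences that were near 0 turned negative with quantile normalization (FASN -0.068, ELOVL6 -0.051, PGD -0.041), median centring (FASN -0.080, ELOVL6 -0.093, PGD -0.066) and without the muscle-rich arrays (ELOVL6 -0.086, PGD -0.057). ELOVL6 in perirenal minus sternal fat at 28 days turned to -0.068 with quantile normalization and -0.26 with median centring, and without the muscle-rich arrays SCD turned to -0.053 (omental minus sternal, 7 days) and 0.027 (perirenal minus sternal, 28 days). The depot by age test of SCD gave 0.038 with median centring and 0.029 with a minimum mean of 4. Over all probe sets that test called 3943 of 10273 and 727 of 1752 under these settings.

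Leaving out 1 array at a time gave adjusted p from 0.015 to 0.16 for the F test of ELOVL6 at 28 days, 0.0077 to 0.059 for PGD at 7 days, and 0.030 to 0.15 for the depot by age test of SCD and 0.0092 to 0.70 for FASN. It gave differences from -0.021 to 0.12 for the mean age difference of ELOVL6, -0.45 to 0.12 (omental minus subcutaneous, 7 days), -0.065 to 0.30 (perirenal minus sternal, 28 days) and -0.21 to 0.16 (perirenal minus subcutaneous, 28 days) for ELOVL6, and -0.34 to 0.054 (epicardial minus perirenal, 28 days) and -0.10 to 0.64 (omental minus sternal, 7 days) for SCD. The fall of SCD as a mean over depots passed under every alternative run and every array left out, from -1.82 to -1.51 on the log2 scale. Over all probe sets, median centring shifted single arrays by -0.29 to 0.35. With it, 95.5% of 7870 called probe sets were higher in sternal fat than elsewhere at 28 days (62.9% of 955 with quantile normalization, 8.25% of 2061 as deposited), 53.3% of 300 in omental fat (75.9% of 294 and 93% of 526), 14.1% of 6111 at 28 days as a mean over depots (54.1% of 1889 and 81% of 2615), 68.7% of 792 in sternal fat between the ages (45.5% of 751 and 38.8% of 654) and 16.4% of 1886 in subcutaneous fat (50.5% of 493 and 83.1% of 950). Without the muscle-rich arrays, which left 1 subcutaneous array at 7 days, the one with the highest PGD, the age difference of PGD in subcutaneous fat against the other depots was -1.14 (adjusted p = 0.049). Causes were not tested. FASN and PGD were left out by the minimum mean of 4, and no fixed block could be set between ages, which share no number.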
